A study of Mus musculus with 12 samples.

Results

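The Hox genes of the 4 mammalian clusters were examined in 12 mouse neuroendocrine thyroid carcinomas profiled by messenger RNA sequencing. They were taken as every gene symbol made of Hoxa, Hoxb, Hoxc or Hoxd and a number, which gave 39 of the 23284 genes counted: 11 of Hoxa, 10 of Hoxb, 9 of Hoxc and 9 of Hoxd. The tumours were primary thyroid tumours of genetically engineered mice, and the study asked which genes Crebbp, a histone acetyltransferase and coactivator, regulates. By the genotype label 7 tumours were Rb1/Trp53, called RP-labelled here, and 5 were Rb1/Trp53/Crebbp, called RPC-labelled, so both groups carry engineered alleles of the tumour suppressors Rb1 and Trp53 and differ by the Crebbp allele. No treatment is labelled. Not given in the sources used here are the strain, age and sex of the mice, the alleles, the Cre driver, and whether each tumour came from its own mouse, so p-values cover only the spread among these samples.

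Hox genes encode homeodomain transcription factors that give cells their position along the head-to-tail axis. They lie in 4 clusters, and genes with the same number in different clusters are paralogues; low-numbered genes are switched on early and anteriorly, and high-numbered genes late and posteriorly. The pharyngeal region from which the thyroid forms is patterned by the low-numbered genes, and Hoxa3 is needed for the thyroid and the glands beside it to form normally. Whole clusters are held silent by Polycomb complexes and kept active by complexes of the MLL methyltransferases, and the proteins bind DNA with cofactors of the Pbx and Meis families.

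Libraries held 9.114 M to 57.34 M gene counts, and 3 counts, taken as the floor of detection, were worth 0.0502 to 0.312 CPM (counts in each 1 M of the scaled library). These limits cover counting error alone. Crebbp transcripts were at 41.0 CPM in the lowest, 49.3 in the median and 98.9 in the highest RP-labelled tumour, and at 60.8, 52.4, 50.0, 51.8 and 54.6 CPM in RPC-labelled replicates 1 to 5. The groups overlapped (edgeR adjusted p = 0.957). Whole-gene counts cannot reveal a deleted exon, so they do not check the label. The C cell markers of the neuroendocrine thyroid were present in every tumour, with a summed level of 97040 to 235400 CPM in RP-labelled and 26110 to 139900 CPM in RPC-labelled tumours. Each tissue sample was a mixture, in which fewer cells of a type and less RNA per cell cannot be told apart.

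Most Hox genes were close to silent, and the transcripts came overwhelmingly from Hoxb. Over the 12 tumours 92.5% of all Hox counts were Hoxb counts, and Hoxb8 alone gave 30.5%. Of the 39 genes, 4 had no count in any tumour (Hoxa6, Hoxa13, Hoxc12 and Hoxd11), and another 13 never reached 10 counts. The remaining 22 were 5 of Hoxa, 9 of Hoxb, 3 of Hoxc and 5 of Hoxd. Among paralogue numbers 10 to 13, which mark the posterior trunk, limbs and genital region, no gene of any cluster reached 10 counts. The detected genes therefore ran from number 1 to number 9, and number 9 was above 10 counts in Hoxb and Hoxd only.

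**Figure D1:**
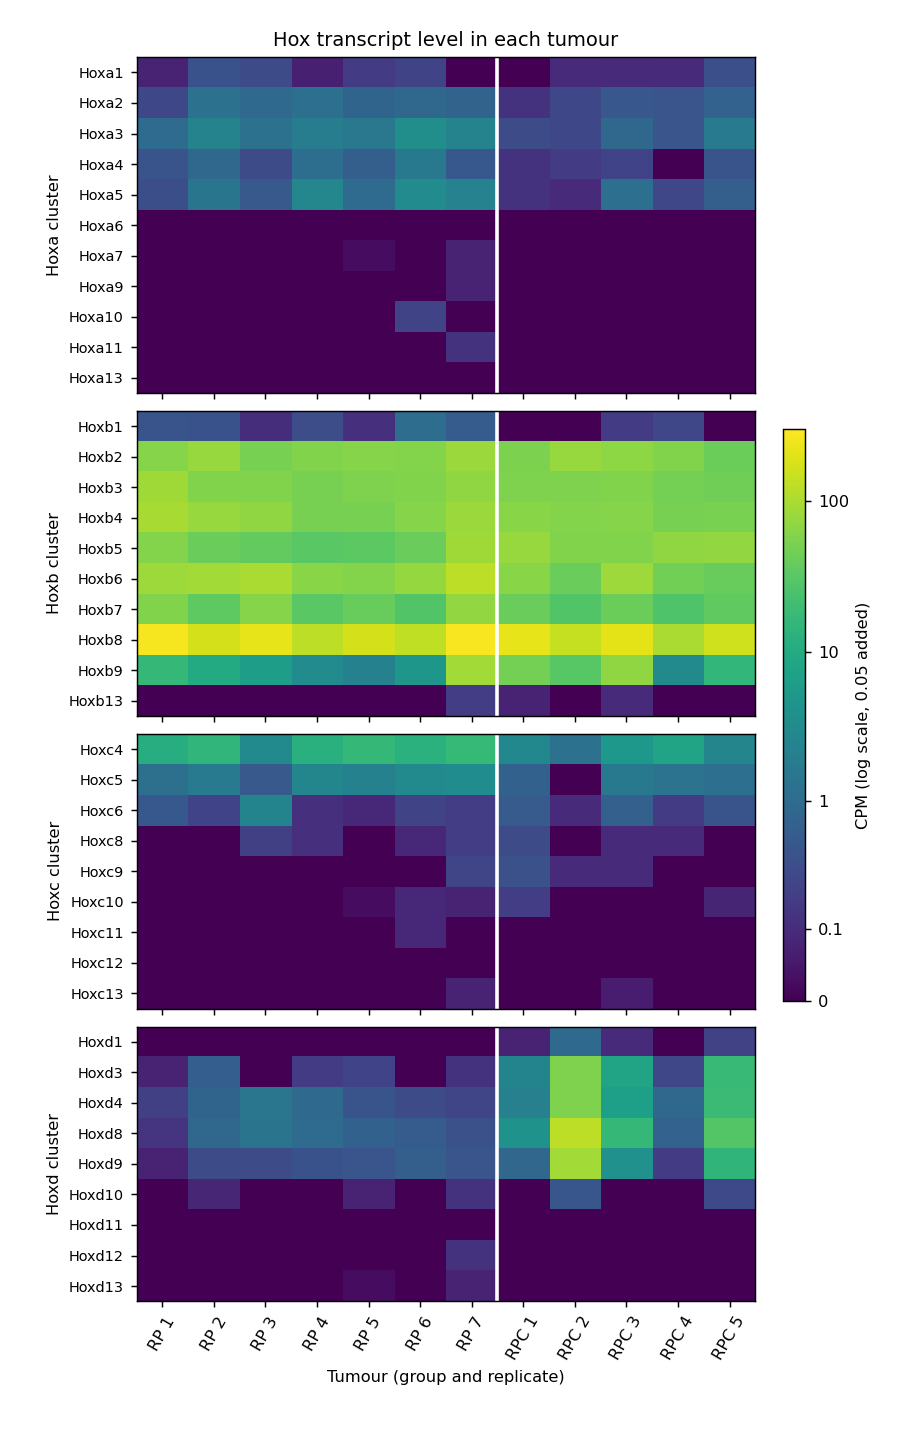
Level of each of the 39 Hox genes (rows, by cluster and paralogue number) in each of the 12 tumours (columns, by group and replicate), as CPM on a colour scale that is logarithmic with 0.05 added. Hoxb2 to Hoxb8 are high in all 12 tumours, and Hoxd3, Hoxd4, Hoxd8 and Hoxd9 are brightest in RPC-labelled replicates 2 and 5, followed by replicate 3.

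For the comparison of genotypes, genes with enough reads were tested together with edgeR's quasi-likelihood F test, and a gene was called at a Benjamini-Hochberg adjusted p under 0.05 over all 14989 genes tested. With a minimum count of 10 in the filter, 15 Hox genes were tested: 3 of Hoxa, 8 of Hoxb, 2 of Hoxc and 2 of Hoxd. Higher in RPC-labelled tumours were 2 of them, Hoxd4 and Hoxd8, which is 13.3% where 9.64% of all tested genes were called higher. Lower were 2, Hoxa3 and Hoxc4, which is 13.3% against 8.61% of all tested genes. Both shares are near the background for a list of this size. Hoxd4 and Hoxd8 pass this filter only with the RPC-labelled tumours in which they are high, and Hoxa3 only with the RP-labelled ones. For no Hox gene tested did the 2 groups separate fully (0 of 15), as they did upward for 3.62% and downward for 2.64% of all tested genes. The calls divided by cluster: both genes called higher are in Hoxd, and none of the 8 Hoxb genes tested was called (edgeR adjusted p 0.0707 to 0.693). The median log2 fold change of the tested Hox genes was -0.29, beside -0.02 for all tested genes.

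**Figure D2:**
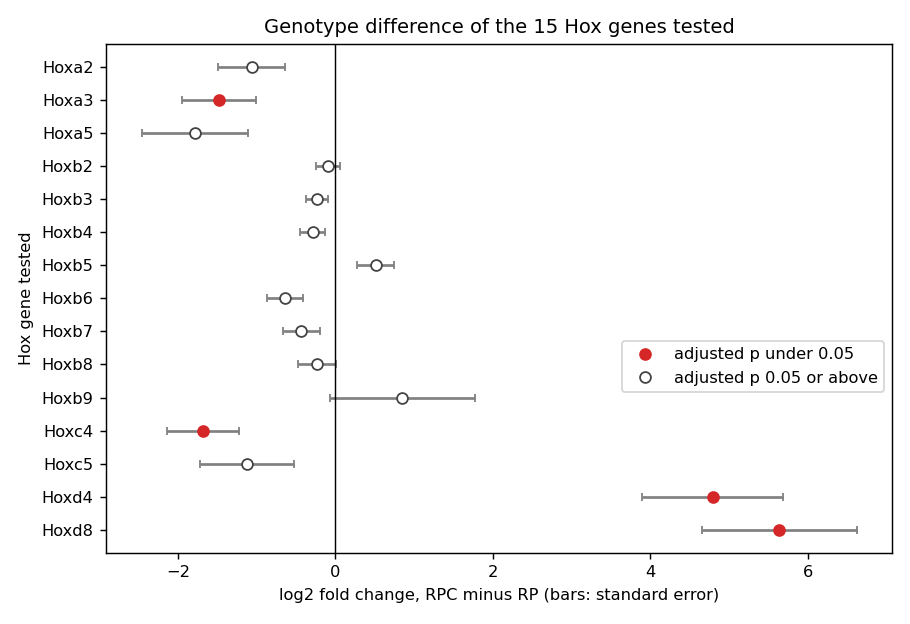
Log2 fold change (RPC-labelled minus RP-labelled, x axis) of the 15 Hox genes tested, with bars of 1 standard error; filled points have an edgeR adjusted p under 0.05. Hoxd8 at 5.64 and Hoxd4 at 4.79 stand to the right of the other genes, and Hoxa3 at -1.48 and Hoxc4 at -1.68 are the called genes on the left.

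The Hoxd cluster held the widest differences. Hoxd3, Hoxd4, Hoxd8 and Hoxd9 were at 1.46 CPM or less in all 7 RP-labelled tumours and above every one of them in RPC-labelled replicates 1, 2, 3 and 5, while RPC-labelled replicate 4 was no higher than the highest RP-labelled tumour in any of the 4. The segment around their starts is shown to place them: below are the 250 bases upstream of each RefSeq start (GRCm38.p6, a later build than the mm9 of the counts), in chromosome order, so Hoxd9 is the most posterior of the 4. Capitals mark the short CRE motif TGACG on either strand, which CREB family factors, the partners that gave Crebbp its name, can bind, and the TATA box TATAAA on either strand.
Hoxd9, chr2:74697513-74697762, plus strand: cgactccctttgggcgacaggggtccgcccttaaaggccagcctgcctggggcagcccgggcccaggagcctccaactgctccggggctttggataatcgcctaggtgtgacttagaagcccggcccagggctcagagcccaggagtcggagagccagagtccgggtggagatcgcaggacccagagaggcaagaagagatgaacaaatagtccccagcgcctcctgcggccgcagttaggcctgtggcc
Hoxd8, chr2:74704365-74704614, plus strand: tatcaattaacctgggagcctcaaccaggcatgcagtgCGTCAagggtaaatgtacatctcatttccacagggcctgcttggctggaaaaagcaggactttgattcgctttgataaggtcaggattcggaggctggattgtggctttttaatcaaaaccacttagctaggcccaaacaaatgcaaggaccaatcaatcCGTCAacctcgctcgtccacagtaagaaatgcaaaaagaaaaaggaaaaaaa
Hoxd3, chr2:74711743-74711992, plus strand: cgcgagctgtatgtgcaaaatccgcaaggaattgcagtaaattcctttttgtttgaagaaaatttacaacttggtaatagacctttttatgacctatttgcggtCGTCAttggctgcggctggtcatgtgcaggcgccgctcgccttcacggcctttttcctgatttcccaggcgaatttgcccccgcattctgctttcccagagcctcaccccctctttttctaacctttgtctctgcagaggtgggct
Hoxd4, chr2:74721728-74721977, plus strand: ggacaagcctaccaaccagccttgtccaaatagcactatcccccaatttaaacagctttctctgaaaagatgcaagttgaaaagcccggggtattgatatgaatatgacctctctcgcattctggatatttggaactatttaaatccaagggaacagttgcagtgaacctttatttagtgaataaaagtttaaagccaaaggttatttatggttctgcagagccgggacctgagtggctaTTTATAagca

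The full CRE palindrome TGACGTCA and the Pbx-Hox motif TGATNNAT were absent from these 4 windows on both strands, and they are present in 1.55% and 7.68% of the 32851 windows of this length in the table. The short motif, which the palindrome also contains, occurs in 17.8% of all windows, and here it begins 212 and 52 bases before the start of Hoxd8 and 146 bases before that of Hoxd3. A TATA box occurs in 12.4% of all windows and here only before Hoxd4, 10 bases from the start. The windows hold 13 CpG dinucleotides for Hoxd9, 6 for Hoxd8, 12 for Hoxd3 and 3 for Hoxd4, where the median of all windows is 6. No motif searched is in all 4 windows, while the 4 genes were highest in the same tumours. A match is a description of letters and no evidence of binding.

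Hoxd8, the best covered gene of the 4, had 0.141 CPM in the lowest, 0.686 in the median and 1.35 in the highest RP-labelled tumour. In RPC-labelled replicates 1 to 5 it had 4.16, 126, 16.2, 0.710 and 29.0 CPM. Thus 4 of 5 RPC-labelled tumours lay above every RP-labelled tumour, a position that at least 4 of 5 reached for 9.31% of all tested genes. The mean of Hoxd8 was 0.711 ± 0.401 CPM with the RP label (SD, n = 7) and 35.1 ± 51.8 CPM with the RPC label (SD, n = 5). The fitted rise was 49.9-fold, or 5.64 ± 0.98 on the log2 scale (SE; edgeR adjusted p = 0.00550). With RPC-labelled replicate 2 left out it was 4.12 on the log2 scale and still called (adjusted p = 0.0137). Hoxd8 passes the filter with a minimum count of 10 only with the RPC-labelled tumours in which it is high. With a minimum count of 3, which it passes on RP-labelled tumours alone, its log2 fold change was 5.64 ± 0.98 (SE; edgeR adjusted p = 0.00555).

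Hoxd4, which works in the patterning of the hindbrain and upper spine, had 0.211, 0.435 and 1.46 CPM in the lowest, median and highest RP-labelled tumour. Its RPC-labelled levels were 2.14, 56.4, 6.65, 0.888 and 18.5 CPM in replicates 1 to 5. Again only replicate 4 fell among the RP-labelled tumours. The means were 0.628 ± 0.455 CPM (SD, n = 7) and 16.9 ± 23.1 CPM (SD, n = 5), and the fitted rise was 27.7-fold, or 4.79 ± 0.90 on the log2 scale (SE; edgeR adjusted p = 0.00750). It was 3.50 on the log2 scale without RPC-labelled replicate 2 (adjusted p = 0.0228). Hoxd4 too passes the filter with a minimum count of 10 only with the RPC-labelled tumours in which it is high. With a minimum count of 3, which it passes on RP-labelled tumours alone, its log2 fold change was 4.79 ± 0.90 (SE; edgeR adjusted p = 0.00790).

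Hoxd3, a paralogue of Hoxa3 that patterns the first vertebrae, reached at most 0.629 CPM in RP-labelled tumours, with a median of 0.127 and with 0 counts in replicates 3 and 6. In RPC-labelled replicates 1 to 5 it had 2.46, 54.9, 8.11, 0.266 and 18.3 CPM. Hoxd9, which acts in the lower trunk and limbs, had 0.0703, 0.405 and 0.650 CPM in the lowest, median and highest RP-labelled tumour and 0.819, 89.3, 4.06, 0.178 and 14.8 CPM in the RPC-labelled tumours. In both genes the same 4 RPC-labelled tumours were above every RP-labelled one, Hoxd9 of replicate 1 on only 13 counts. Neither gene passed the filter with a minimum count of 10.

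With a minimum count of 3, 20 Hox genes and 16428 genes in all were tested, and 4 Hox genes were called higher (20%, where 9.08% of all were) and 2 lower (10%, where 7.99% were). Hoxd9, which passes that filter on tumours of both groups, then rose by 5.79 ± 1.17 on the log2 scale (SE; edgeR adjusted p = 0.0101), by 3.64 with RPC-labelled replicate 2 left out, and it was called with any 1 tumour left out (adjusted p 0.00359 to 0.0297). Hoxd3 passes it only through the RPC-labelled tumours in which it is high and so had to differ. Its fitted log2 difference of 6.44 ± 1.07 (SE), or 5.23 with RPC-labelled replicate 2 left out, and its place in the count of 4 are a description.

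**Figure D3:**
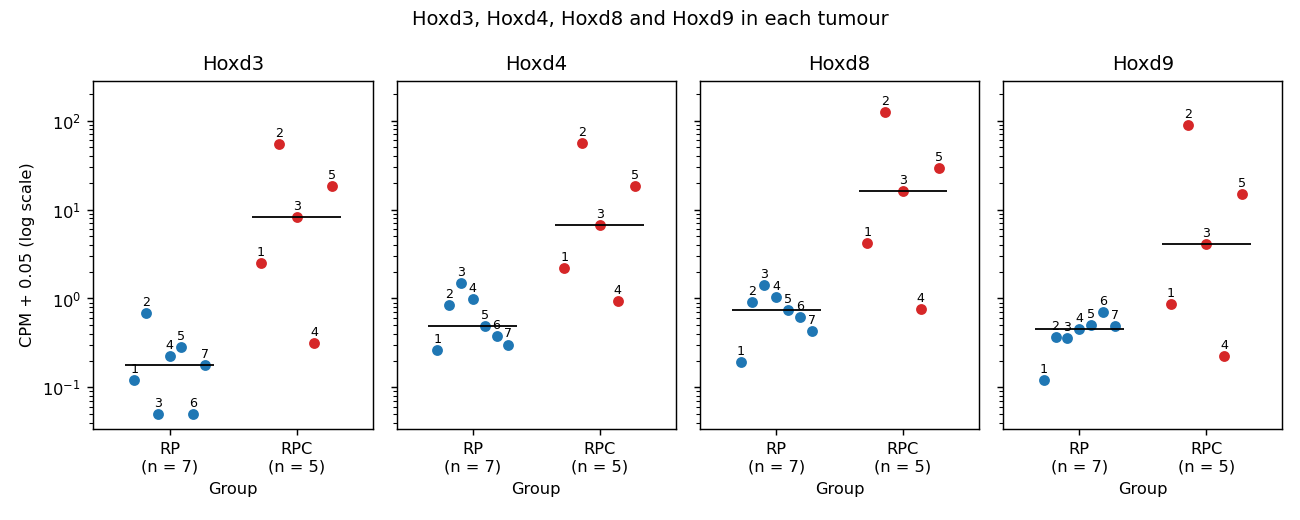
CPM of Hoxd3, Hoxd4, Hoxd8 and Hoxd9 in each tumour on a logarithmic axis with 0.05 added, by group (7 RP-labelled, 5 RPC-labelled); the number over a point is the replicate and the line is the group median. RPC-labelled replicates 1, 2, 3 and 5 lie above all RP-labelled tumours in the 4 panels, and replicate 4 lies among them.

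At the ends of the cluster reads were few. Hoxd1, the most anterior gene, had 0 counts in all RP-labelled tumours and 1, 10, 2, 0 and 3 counts in RPC-labelled replicates 1 to 5, so only replicate 2 was clearly above the floor of 3 counts. The order of these 5 tumours is that of the 4 genes between. Tested without any filter, Hoxd1 was called higher at an adjusted p of 0.0484, which rests on 16 reads, and 5 of 35 Hox genes were then called higher (14.3%, where 6.3% of 20479 genes were) and 1 lower (2.86%, where 5.32% were). Hoxd10, next to Hoxd9 on the posterior side, had at most 5 counts in any tumour, also in RPC-labelled replicate 2 where Hoxd9 had 974. Hoxd12 and Hoxd13 had at most 2 and 1 counts, and Hoxd11 none. In the tumours that carried Hoxd reads, few lay beyond Hoxd9.

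The 4 genes kept 1 order of tumours. Against the mean of the RP-labelled tumours, Hoxd8 was 177-fold higher in RPC-labelled replicate 2, 40.8-fold in replicate 5, 22.8-fold in replicate 3 and 5.85-fold in replicate 1, and replicate 4 stood at 0.999 times the mean. For Hoxd3 the ratios were 311, 104, 46.0, 13.9 and 1.51 in the same order of tumours, and for Hoxd4 they were 89.8, 29.5, 10.6, 3.41 and 1.42. For Hoxd9 they were 236, 39.1, 10.7, 2.17 and 0.470. Replicate 2 was highest, replicate 5 second and replicate 4 lowest in each. In RefSeq the whole spans of Hoxd3 and Hoxd4, introns included, overlap on the plus strand. Whether their counts share reads was not tested.

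Within the cluster the mix of transcripts differed between tumours. Hoxd8 gave the most reads in the 4 tumours, 43.1% of Hoxd counts in RPC-labelled replicate 1, 38.4% in replicate 2, 46.1% in replicate 3 and 35.8% in replicate 5. Hoxd9 gave 8.50%, 27.3%, 11.6% and 18.2%. The share of Hoxd9 was thus larger in replicates 2 and 5, where the cluster was highest, than in replicates 1 and 3. These shares are reads, not molecules. Per kb of the longest annotated transcript the mean RPC-labelled levels were 13.3 CPM for Hoxd8, 10.2 for Hoxd9, 6.61 for Hoxd4 and 5.66 for Hoxd3, and the RP-labelled ones were 0.270, 0.177, 0.245 and 0.0594.

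As a share of all Hox counts, Hoxd made up 0.0658% to 0.560% in RP-labelled tumours, with a median of 0.380%. In RPC-labelled replicate 2 the share was 39.7% (exact Clopper-Pearson 95% interval, counting error only, 38.7% to 40.7%), and in replicate 5 it was 14.7% (13.9% to 15.5%). Replicates 3 and 1 had 5.03% (4.68% to 5.39%) and 1.51% (1.28% to 1.77%), while replicate 4 had 0.489% (0.310% to 0.733%), inside the RP-labelled range. The summed Hoxd level averaged 1.96 ± 0.882 CPM with the RP label (SD, n = 7) and 91.1 ± 135.7 CPM with the RPC label (SD, n = 5), so the spread between RPC-labelled tumours was larger than their mean.

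**Figure D4:**
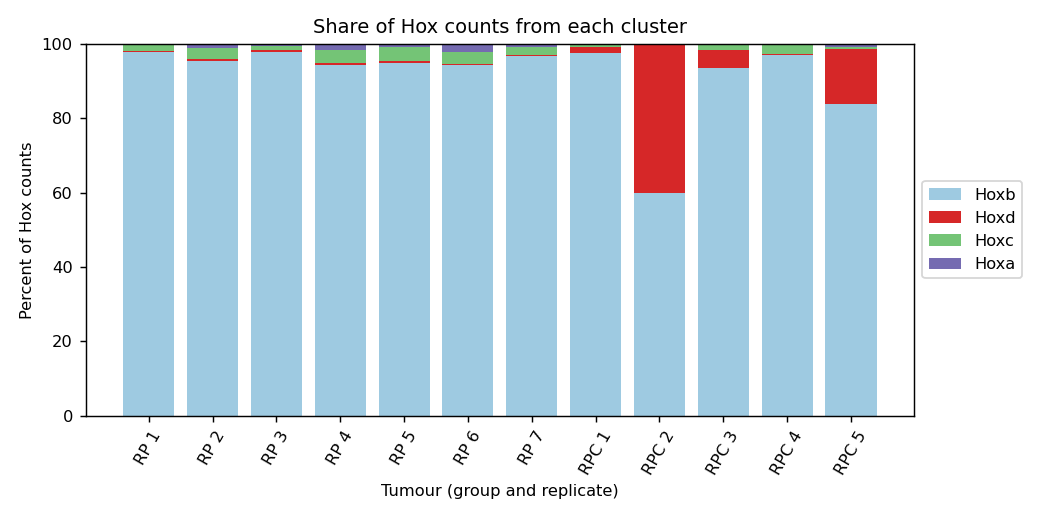
Percent of all Hox counts that came from each cluster (stacked bars, y axis) in each of the 12 tumours (x axis). Hoxb fills 94.3% to 97.9% of the bar in RP-labelled tumours, and Hoxd takes 39.7% in RPC-labelled replicate 2 and 14.7% in replicate 5.

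Among RPC-labelled tumours, follicular and C cell markers were highest where Hoxd was lowest, and lowest in the 2 tumours with the most Hoxd. Of 12 thyroid follicular markers tested, 3 were called lower and 0 higher, where 8.61% and 9.64% of all tested genes were. The summed level of the follicular markers was 2071 to 9683 CPM in RP-labelled tumours. In RPC-labelled replicates 1 to 5 it was 1160, 400.7, 2145, 5991 and 561.5 CPM, so the tumour without the Hoxd rise had the highest follicular level of its group and the 2 tumours with the largest rise had the lowest. The C cell markers had the same tumours at the top and bottom, with 89750, 31620, 112300, 139900 and 26110 CPM, although of 13 tested only Uchl1 was called higher and Nkx2-1 lower. Between these ends the inverse order did not hold, since replicate 3 had more of both marker sums and more Hoxd than replicate 1. RP-labelled replicate 3, with a follicular level of 2071 CPM, had a summed Hoxd level of 3.12 CPM. With a follicular score as covariate in the fit Hoxd8 and Hoxd4 were not called (log2 fold changes 1.59 and 0.83, adjusted p 0.774 and 0.909), and 0.02% of all genes were. No follicular or C cell marker was at 0 in every tumour. The part of tissue makeup in the Hoxd difference cannot be told apart from the genotype in that fit.

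Other cell types were also measured, and their counts called stand beside 9.64% higher and 8.61% lower of all tested genes. For lists this short, 1 or 2 calls are near those shares. The 10 adipocyte markers were all called lower, with sums of 92.9 to 1808 CPM in RP-labelled and 72.7 to 142.7 CPM in RPC-labelled tumours. Fibroblast markers, whose cells can carry Hox transcripts of their own, summed to 987.7 to 4292 and 802.8 to 2238 CPM. Of 14 tested, 0 were called higher and 2 lower. With a fibroblast score as covariate the log2 fold changes of Hoxd8 and Hoxd4 were 5.66 and 5.09 (edgeR adjusted p 0.0152 and 0.0148). Both genes pass the filter of that fit only with the RPC-labelled tumours in which they are high. Skeletal muscle markers, with 0 of 8 called, summed to 17.3 to 3670 CPM in RP-labelled tumours, 3972 CPM in RPC-labelled replicate 5 and 19.2 CPM in replicate 2, so the 2 tumours with the most Hoxd were at opposite ends. Airway and squamous markers, with 1 of 7 called higher and 1 lower, were likewise at 1638 CPM in replicate 5 and 26.1 CPM in replicate 2. Schwann cell markers, with 2 of 3 called lower, summed to 23.8 to 73.7 and 14.5 to 30.6 CPM. Lymphocyte markers did not overlap between groups, at 15.4 to 43.5 and 6.75 to 10.5 CPM, with 1 of 2 tested called lower. Parathyroid and thymus markers summed to 109.2 to 2816 and 127.1 to 1195 CPM, with 1 of 5, Foxn1, called lower. Endothelial markers summed to 70.8 to 148.3 and 45.2 to 142.9 CPM, with 1 of 7 called lower. Macrophage markers summed to 268.5 to 1169 and 202.7 to 555.4 CPM, with 0 of 7 called. A marker score of mixed tissue cannot separate the part of fibroblasts in the Hoxd difference, and the part of these other tissues was not tested.

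The tested neighbours of Hoxd were not called. Mtx2 and Lnpk, which lie on either side of the cluster, were at 42.8 against 43.3 CPM and 41.1 against 47.9 CPM (RP-labelled against RPC-labelled means), with log2 fold changes of 0.01 ± 0.19 and 0.22 ± 0.09 (SE; edgeR adjusted p 0.965 and 0.114). Evx2, the homeobox gene at the posterior end, had 0 counts in all tumours. Farther off on chromosome 2 lies the splicing factor gene Cwc22, which is in none of the lists and was chosen with its difference known. It had 30.5 to 35.5 CPM in RP-labelled tumours and 648, 641, 566, 293 and 531 CPM in RPC-labelled replicates 1 to 5. Replicate 4 was thus the lowest of its group but above every RP-labelled tumour. No test is given for Cwc22, since it was picked for these values. Of 30 genes listed as lying beside or inside the 4 clusters, 19 were found and 9 tested, with 1 called higher and 1 lower, near the 9.64% and 8.61% of all genes, and a median log2 fold change of 0.01. The gene called higher was Cbx5, the heterochromatin protein HP1 alpha, which lies near Hoxc, and the lower one Calcoco1 (log2 fold changes 0.51 ± 0.14 and -0.49 ± 0.14 SE; adjusted p 0.0278 and 0.0351).

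Hoxb was the cluster that was high in all tumours. Hoxb8 was the most abundant Hox gene, at 128 CPM in the lowest, 170 in the median and 271 in the highest RP-labelled tumour, and at 216, 141, 211, 98.9 and 160 CPM in RPC-labelled replicates 1 to 5. Per kb of transcript it was also first, at 73.6 CPM in RP-labelled and 62.7 CPM in RPC-labelled tumours, followed in RP-labelled tumours by Hoxb6 at 43.7, Hoxb2 at 39.5, Hoxb7 at 36.3, Hoxb4 at 27.3, Hoxb5 at 25.0 and Hoxb3 at 19.6. The groups overlapped for Hoxb8 (log2 fold change -0.23 ± 0.24 SE; edgeR adjusted p = 0.520), with a log2 fold change of 0.06 by limma voom. The summed Hoxb level was 590 ± 167 CPM (SD, n = 7) and 528 ± 106 CPM (SD, n = 5), a difference smaller than the spread of either group.

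The anterior Hoxb genes, which pattern the hindbrain and neck, overlapped between the groups. Hoxb2 had 51.1, 60.9 and 80.4 CPM in the lowest, median and highest RP-labelled tumour and 54.5, 78.7, 67.4, 57.7 and 43.1 CPM in RPC-labelled replicates 1 to 5. Hoxb3 had 49.7, 57.4 and 87.0 CPM against 56.4, 56.5, 57.6, 49.0 and 45.8 CPM, and Hoxb4 had 50.4, 71.2 and 97.1 CPM against 64.0, 59.6, 61.1, 50.3 and 51.8 CPM. Their log2 fold changes were -0.09 ± 0.15, -0.23 ± 0.13 and -0.29 ± 0.16 (SE; edgeR adjusted p 0.693, 0.231 and 0.221), and that of Hoxb2 was 0.11 with libraries scaled by total counts. RPC-labelled replicate 2, with the highest Hoxd level, was inside the RP-labelled range for these 3 genes. Hoxb1, the most anterior gene, was near the floor, at 0.104 to 1.06 CPM in RP-labelled tumours and 0 to 0.266 CPM in RPC-labelled ones.

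The central genes went different ways without a call. Hoxb5 had 32.8, 40.7 and 86.8 CPM in the lowest, median and highest RP-labelled tumour and 78.2, 58.3, 57.4, 71.6 and 72.7 CPM in RPC-labelled replicates 1 to 5 (log2 fold change 0.51 ± 0.23 SE; edgeR adjusted p = 0.130). Without RP-labelled replicate 7, the highest of its group, Hoxb5 was called higher (log2 fold change 0.73, adjusted p = 0.0178). Hoxb6 had 59.0, 83.6 and 128 CPM against 64.9, 40.6, 84.3, 46.9 and 39.6 CPM (log2 fold change -0.63 ± 0.23 SE; adjusted p = 0.0707), and it was called lower without RP-labelled replicate 5 or RPC-labelled replicate 3 (adjusted p 0.0454 and 0.0348). Hoxb7 had 28.2, 39.5 and 73.3 CPM against 40.6, 28.5, 41.9, 27.2 and 35.5 CPM (log2 fold change -0.43 ± 0.24 SE; adjusted p = 0.216). Neighbouring genes of 1 cluster therefore had fold changes of opposite sign, with Hoxb5 above 0 and Hoxb4 and Hoxb6 below it.

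Hoxb9, at the posterior end of the expressed Hoxb genes, differed widely between tumours of each group. In RP-labelled tumours it had 16.1, 9.99, 6.56, 3.30, 2.26, 4.95 and 91.2 CPM in replicates 1 to 7, and in RPC-labelled tumours 49.5, 31.7, 71.9, 3.20 and 16.0 CPM. RPC-labelled replicate 4 was again the lowest of its group, and RP-labelled replicate 7 was above every other tumour. The gene was not called (19.2 ± 32.1 against 34.5 ± 27.2 CPM, SD; log2 fold change 0.85 ± 0.92 SE; edgeR adjusted p = 0.532). Without RP-labelled replicate 7 it was called higher, with a log2 fold change of 2.28 (adjusted p = 0.0442), and with RPC-labelled replicate 3 left out it was 0.39 on the log2 scale (adjusted p = 0.814). RP-labelled replicate 7 had no matching rise in Hoxd9, the paralogue, which stood at 0.444 CPM there. Hoxa9 and Hoxc9, the other paralogues, stayed at or below 6 counts in every tumour.

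Hoxc was low in all tumours, and its leading gene fell. Hoxc4, the most anterior gene of its cluster, had 3.02 CPM in the lowest, 12.8 in the median and 17.1 in the highest RP-labelled tumour. It had 2.84, 1.28, 5.09, 7.90 and 2.61 CPM in RPC-labelled replicates 1 to 5, so 3 of 5 lay below every RP-labelled tumour and the other 2 lay above RP-labelled replicate 3 alone. The mean of Hoxc4 was 12.6 ± 4.79 CPM (SD, n = 7) against 3.94 ± 2.60 CPM (SD, n = 5), a 3.21-fold fall (-1.68 ± 0.46 SE on the log2 scale; edgeR adjusted p = 0.0273). The call was lost without RP-labelled replicate 2 (adjusted p = 0.0513) or RPC-labelled replicates 1, 2 or 5 (0.0672, 0.0609 and 0.0575), and with the follicular score as covariate the log2 fold change was 0.36.

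Hoxc5 had 0.520, 2.24 and 3.36 CPM in the lowest, median and highest RP-labelled tumour and 0.693, 0, 1.65, 1.33 and 1.16 CPM in the RPC-labelled tumours. It was not called (log2 fold change -1.12 ± 0.60 SE; edgeR adjusted p = 0.198). Hoxc6 had at most 24 counts and Hoxc8 to Hoxc13 at most 6. The summed Hoxc level was 15.5 ± 4.86 CPM (SD, n = 7) and 5.57 ± 3.11 CPM (SD, n = 5). RPC-labelled replicate 4 had the highest Hoxc4 of its group and the lowest Hoxd8, and replicate 2 the lowest Hoxc4 and the highest Hoxd8.

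Hoxa was faint: genes 2 to 5 were above the floor in RP-labelled tumours (Hoxa4 of replicate 3, with 3 counts, was at it), and in RPC-labelled replicates 1, 2 and 4 they had at most 5 counts each. Hoxa3, the gene tied to thyroid, parathyroid and thymus development, had 0.984, 1.91 and 3.57 CPM in the lowest, median and highest RP-labelled tumour and 0.315, 0.275, 0.849, 0.444 and 1.67 CPM in RPC-labelled replicates 1 to 5. All RPC-labelled tumours except replicate 5 lay below every RP-labelled tumour, a position that at least 4 of 5 reached for 7.95% of all tested genes. Its mean was 2.02 ± 0.877 CPM (SD, n = 7) against 0.710 ± 0.581 CPM (SD, n = 5), a 2.79-fold fall (-1.48 ± 0.47 SE on the log2 scale; edgeR adjusted p = 0.0470). The call was at the edge of the threshold: it was lost in 17 of 26 alternatives, among them the removal of RP-labelled replicate 2, 4, 6 or 7 or of RPC-labelled replicate 1, 2, 3 or 4. Hoxa3 passes the filter with a minimum count of 10 only through the RP-labelled tumours, where it is higher. With a minimum count of 3, which tumours of both groups pass, it was not called (edgeR adjusted p = 0.0503).

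The other Hoxa genes tested also had fold changes below 0. Hoxa5, which acts in the neck, airway and lung, had 0.352, 1.42 and 3.33 CPM in the lowest, median and highest RP-labelled tumour and 0.126, 0.0916, 1.13, 0.266 and 0.652 CPM in RPC-labelled replicates 1 to 5 (log2 fold change -1.78 ± 0.68 SE; edgeR adjusted p = 0.0817). It was called lower without RP-labelled replicate 1 or RPC-labelled replicate 3 (adjusted p 0.0466 and 0.0481). For Hoxa2 the log2 difference was -1.06 ± 0.43 (SE; adjusted p = 0.0979), and the gene was called lower without RP-labelled replicate 1 (adjusted p = 0.0408). Hoxa4 had at most 6 counts in an RPC-labelled tumour and enters the fit with a minimum count of 3 only through the RP-labelled tumours. Its log2 difference there, -1.92 ± 0.59 (SE), is a description, and without a filter it was not called (adjusted p = 0.0530). Hoxa2 and Hoxa5 pass the filter with a minimum count of 10 only through the RP-labelled tumours, so their differences are likewise a description. Adipocyte markers moved with these genes. In RP-labelled replicates 1 to 7 their sums were 92.9, 1209, 158.5, 1033, 210.0, 1808 and 568.2 CPM, where summed Hoxa was 2.11, 6.37, 3.33, 6.94, 4.20, 9.91 and 6.21 CPM. The same 3 tumours, replicates 2, 4 and 6, were highest in both, and the part of fat tissue in the Hoxa difference was not tested. The whole spans of Hoxa4, Hoxa5 and Hoxa6, introns included, overlap that of Hoxa3, and whether their counts share reads was not tested. The summed Hoxa level was 5.58 ± 2.60 CPM (SD, n = 7) and 1.89 ± 1.36 CPM (SD, n = 5).

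**Figure D5:**
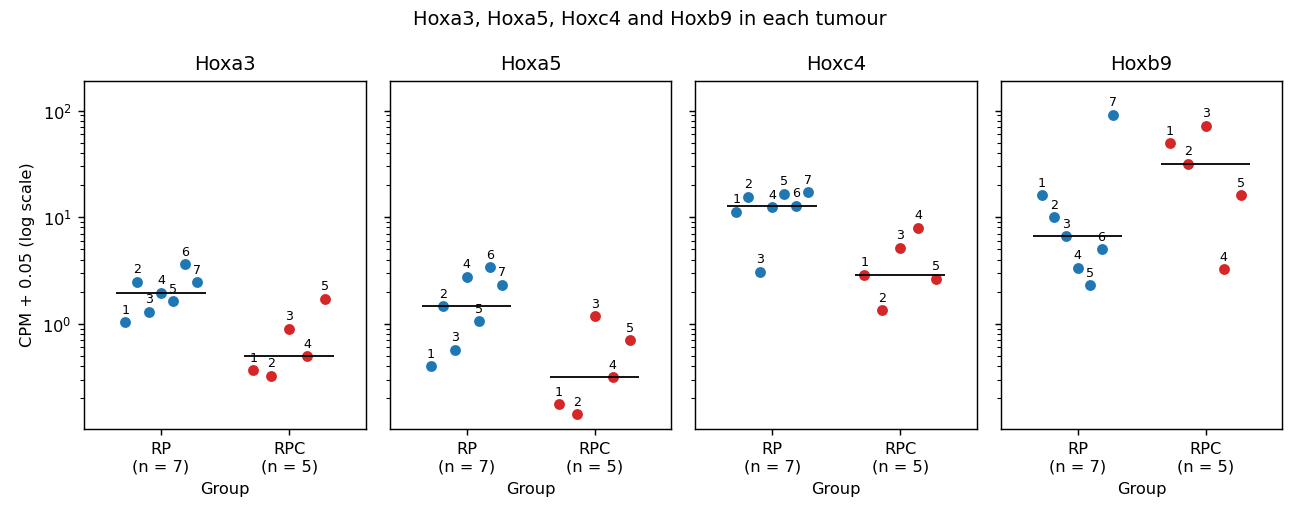
CPM of Hoxa3, Hoxa5, Hoxc4 and Hoxb9 in each tumour on a logarithmic axis with 0.05 added, by group (7 RP-labelled, 5 RPC-labelled); the number over a point is the replicate and the line is the group median. Hoxa3 of RPC-labelled replicates 1 to 4 lies below all RP-labelled tumours, Hoxc4 of RP-labelled replicate 3 lies among the RPC-labelled tumours, and Hoxb9 of RP-labelled replicate 7, at 91.2 CPM, is the highest point of its panel.

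By paralogue number, genes of different clusters had different outcomes in groups 3, 4, 5 and 8. In group 3, Hoxd3 was higher in 4 of 5 RPC-labelled tumours. Hoxa3 was lower with a call at the edge of the threshold, and Hoxb3 was not called. In group 4, Hoxd4 rose, Hoxc4 fell, and Hoxb4 was not called. In group 5, which Hoxd lacks, Hoxb5 had a log2 fold change of 0.51 and Hoxa5 and Hoxc5 had -1.78 and -1.12, none of them called. In group 8 Hoxd8 rose and Hoxb8 was not called, and Hoxc8 was below 10 counts. In group 9 Hoxd9 rose with the minimum count of 3, Hoxb9 also had a fold change above 0 without a call, and RPC-labelled replicate 4 was the lowest of its group in both.

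The genes that act with, on or upstream of Hox genes are read against the shares of all tested genes called, 9.64% higher and 8.61% lower. Of 9 cofactors of the TALE class (Pbx, Meis and their relatives) 0 were called higher and 1 lower, with a median log2 fold change of 0.01. The lower one was Pbx2, at 51.4 ± 6.04 against 33.7 ± 10.9 CPM (SD, n = 7 and 5; log2 fold change -0.61 ± 0.18 SE; edgeR adjusted p = 0.0331).

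Of 15 Polycomb genes, which keep Hox clusters silent, 3 were called higher (20%) and 1 lower, where 9.64% and 8.61% of all genes were, with a median of -0.06. The higher ones were Suz12, a core subunit of Polycomb repressive complex 2 (log2 fold change 0.72 ± 0.16 SE; edgeR adjusted p = 0.0133), Ezh2, its methyltransferase (0.75 ± 0.20; adjusted p = 0.0256), and Cbx2, a reader of its mark (0.71 ± 0.18; adjusted p = 0.0219). Eed, another core subunit, was not called (0.10 ± 0.09; adjusted p = 0.466). Ring1, a ubiquitin ligase of Polycomb repressive complex 1, was the lower one (-0.54 ± 0.15; adjusted p = 0.0295). Kdm6a and Kdm6b, which remove the Polycomb mark, had adjusted p of 0.111 and 0.252.

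The 13 chromatin regulators listed as keeping Hox genes active were of MLL complexes and the H3K27 demethylases, with Psip1, Dot1l and Kat6a. Of the 13, 3 were called higher and 0 lower, where 9.64% and 8.61% of all genes were, with a median of 0.22. The higher genes were Psip1, which tethers MLL complexes to chromatin (log2 fold change 0.77 ± 0.17 SE; edgeR adjusted p = 0.0121), Rbbp5, a core subunit (0.26 ± 0.07; adjusted p = 0.0339), and Men1, menin (0.27 ± 0.09; adjusted p = 0.0434). Kmt2a, the MLL1 methyltransferase itself, was at 228 and 226 CPM in the 2 groups (adjusted p = 0.981).

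Among 16 tested genes of the retinoid, Cdx and Gdf11 signals that set the Hox code in embryos, 1 was called higher and 2 lower, which is near the 9.64% and 8.61% of all genes, with a median of -0.42. Dhrs3, a reductase that lowers retinal and is itself induced by retinoic acid, was at 32.2 ± 10.6 CPM (SD, n = 7) against 12.7 ± 3.91 CPM (SD, n = 5), a fall of -1.34 ± 0.27 on the log2 scale (SE; edgeR adjusted p = 0.00931). The receptor gene Rarg was lower (-0.55 ± 0.17; adjusted p = 0.0406) and the receptor gene Rarb higher (0.79 ± 0.26; adjusted p = 0.0491). Cdx1 and Cdx2, activators of posterior Hox genes, had 0 counts in all tumours. The retinoid genes called did not all point in 1 direction.

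Outside the clusters, 16 homeobox genes related to Hox were listed, and 3 were tested, with 0 called higher and 1, Meox2, lower (log2 fold change -1.27 ± 0.37 SE; edgeR adjusted p = 0.0334). En2, a midbrain and hindbrain gene of that list which did not pass the filter, was chosen here after its values were seen. It had 0, 1, 0, 1, 14, 2 and 6 counts in RP-labelled replicates 1 to 7 and 27, 243, 105, 1 and 38 counts in RPC-labelled replicates 1 to 5. In CPM the RPC-labelled levels were 1.70, 22.3, 4.95, 0.0888 and 2.75, against at most 0.380 in RP-labelled tumours. En2 was thus high in the 4 tumours that were high in Hoxd and at 1 count in replicate 4. No test is given, since the gene was picked for these values.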

How the data were processed

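Polyadenylated RNA of 12 tumours was sequenced. TRIzol extraction, oligo dT selection and the NEBNext Ultra kit were used, per the labels' protocols. The submitters' processing notes name the build mm9 and HTSeq 0.6.1, TopHat2 2.0.12 and bcl2fastq 1.8.2. For the annotation and the strand setting, nothing is given in the sources used here. Each tumour's table, as deposited, holds raw counts of reads for 23284 genes and 5 summary rows, which were left out. The labels name no batch. Within each group all pairs of libraries differed by more than sampling noise.

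From the counts, filterByExpr (minimum count 10) set the genes to test, libraries were scaled by TMM, and the groups were compared with edgeR 4.0.16 (R 4.3.3) by its robust quasi-likelihood F test over 14989 genes, with Benjamini-Hochberg adjustment and no covariate. The square root of F divided into the size of the log2 fold change gave its standard error. CPM uses TMM-scaled libraries. The script was tested on simulated data. The Hox genes, Cwc22, the 6 companion lists and the 11 marker lists were chosen with earlier results of these data known. A value in every tumour, or the range of the larger group, was given for each Hox gene called or averaging 1 CPM or more, and up to 4 called genes with the smallest p were named per companion list. Promoter windows are from RefSeq (GRCm38.p6), which held one for 22 of the Hox genes. Transcript lengths are from GENCODE M21. Alternatives were DESeq2 1.42.0, limma 3.58.1 with voom, other scalings and filters, thinning, marker covariates, a replicate block and leaving out tumours. Leaving out RPC-labelled replicates 2 and 4 together, and each tumour with a minimum count of 3, were chosen after seeing the data.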

Additional observations from a re-analysis of the deposited data

Results flagged for a closer look

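Among 34 sets of values (a Hox gene in 1 group of tumours), 5 held a tumour far from the others of its group by Dixon's criterion. Chance meets that criterion in about 1 of 20 sets of normally distributed values. CPM are skewed here and the sets share tumours, so that rate need not hold. RPC-labelled replicate 2 stood at 125.6 CPM for Hoxd8, with the next tumour of its group at 29.04 CPM. The same tumour stood at 89.26 CPM for Hoxd9, with the next at 14.77 CPM. RP-labelled replicate 7 stood at 91.16 CPM for Hoxb9, with the next at 16.1 CPM. RP-labelled replicate 3 was the low one for Hoxc4, at 3.019 CPM with the next at 11.25 CPM. RP-labelled replicate 2 stood at 0.6295 CPM for Hoxd3, with the next at 0.2344 CPM, a difference of a few reads.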

How the results depend on the processing

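Hoxd4 and Hoxd8 kept their calls in 24 of 26 alternatives, with smaller log2 fold changes by limma voom (3.33 and 3.90). The count of Hox genes called higher, 2, was 5 without a filter, 4 with a minimum count of 3, 4 without RPC-labelled replicates 2 and 4, and 2 to 4 with each tumour left out. The count called lower, 2, was 4 with DESeq2, 4 with limma voom, 0 to 4 with each tumour left out, and 1 with total counts, no filter, thinning, a fibroblast score as covariate, or without RPC-labelled replicates 2 and 4. With a follicular score as covariate 0 were called higher and 0 lower. The share of all genes called, 18.3%, was 42.4% with limma voom, 11.6% without a filter, 0.02% with the follicular score, 8.19% without RPC-labelled replicates 2 and 4, and 7.08% to 23.5% with each tumour left out.

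Log2 fold changes turned sign for Hoxb8 with limma voom (0.062), for Hoxb2 with total counts (0.11), and with the follicular score for Hoxa5 (0.038), Hoxc4 (0.36) and Hoxc5 (1.17); the cause was not tested. Scaling by total counts moved the median of all genes to 0.176, from -0.0163.

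With replicates 1 to 5 alone and no block, 0 Hox genes were called lower and 5.85% of all genes were called. The labels name no pairing by replicate number. Same-numbered tumours had correlations of deviations of -0.165 to 0.208, and differently numbered ones were not compared, so these values do not settle whether samples are paired. With the replicate number as a block 1 Hox gene, Hoxb5, was called higher and 0 lower, and 3.12% of all genes were called. Hoxd4 and Hoxd8 were not called in that fit, with log2 fold changes of 3.59 and 4.40 (edgeR adjusted p 0.0820 and 0.0646).

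Genes under about 10 counts per library are limited by depth, and for Hoxd10, Hoxd12, Hoxd13, Hoxa7 and Hoxa9 to Hoxa11 differences were not detectable.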
